A study of Homo sapiens with 8 samples.

Results

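The tubulin genes described here encode the alpha and beta subunits of microtubules, and were chosen by symbol from a list of 10 (TUBA1A, TUBA1B, TUBA1C, TUBB, TUBB2A, TUBB2B, TUBB3, TUBB4A, TUBB4B and TUBB6). Of these, 9 had a probe set among the 22458 named genes of the deposited table, and TUBB3 was not analysed here. The cells were NCH644, a stem-like human glioblastoma line kept as neurospheres in MG-43 medium. They were exposed for 24 h to 5 µM OTX015, to 5 µM panobinostat, to OTX015 and panobinostat at 5 µM each (the combination), or to DMSO as the vehicle. OTX015 blocks the BET bromodomain proteins, readers of acetylated histones, and panobinostat blocks histone deacetylases (HDACs), including HDAC6, whose known substrates include alpha tubulin. All groups come from 1 cell line, with 2 arrays each, which the submitters call biological duplicates without saying whether they were separate cultures. P-values therefore measure only the spread between these arrays, and their number limits the precision.

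An alpha and a beta tubulin join into a heterodimer, and heterodimers polymerise into the microtubules of the mitotic spindle, the cilium and the neuronal process. The isotypes are alike in the protein core, differ mostly in the acidic tail, and are expressed in different tissues: TUBB is the broadly expressed beta isotype of dividing cells, whereas TUBB2A, TUBB2B, TUBB3 and TUBB4A are enriched in the brain. Cells also tune tubulin mRNA by autoregulation, in which free heterodimers lead to decay of tubulin mRNAs under translation through the factor TTC5.

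Values are log2 signals as deposited, and differences are log2 differences between group means with a standard error (SE) from limma and n = 2 arrays in each group. A gene is said to have risen or fallen where the p-value adjusted over all 22458 genes was under 0.05. The level of background was put at 3.03, below which 95% of group means of olfactory receptor genes (354 genes, silent in most cells) lay. Levels were compared between groups within a gene and not between genes, because probe sets differ in brightness. Members of the family are similar in sequence, and how far each probe set separates them was not tested. In DMSO, 12 of 13 measured glioma stem and neural progenitor markers lay above background, as did 8 of 12 neuronal markers, 4 of 8 fibroblast and pericyte markers, 3 of 7 lymphocyte markers, 2 of 10 microglia and macrophage markers and 2 of 8 endothelial markers. Array medians ranged from 3.87 to 4.004, and duplicates correlated across genes at r = 0.990 to 0.993.

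**Figure D1:**
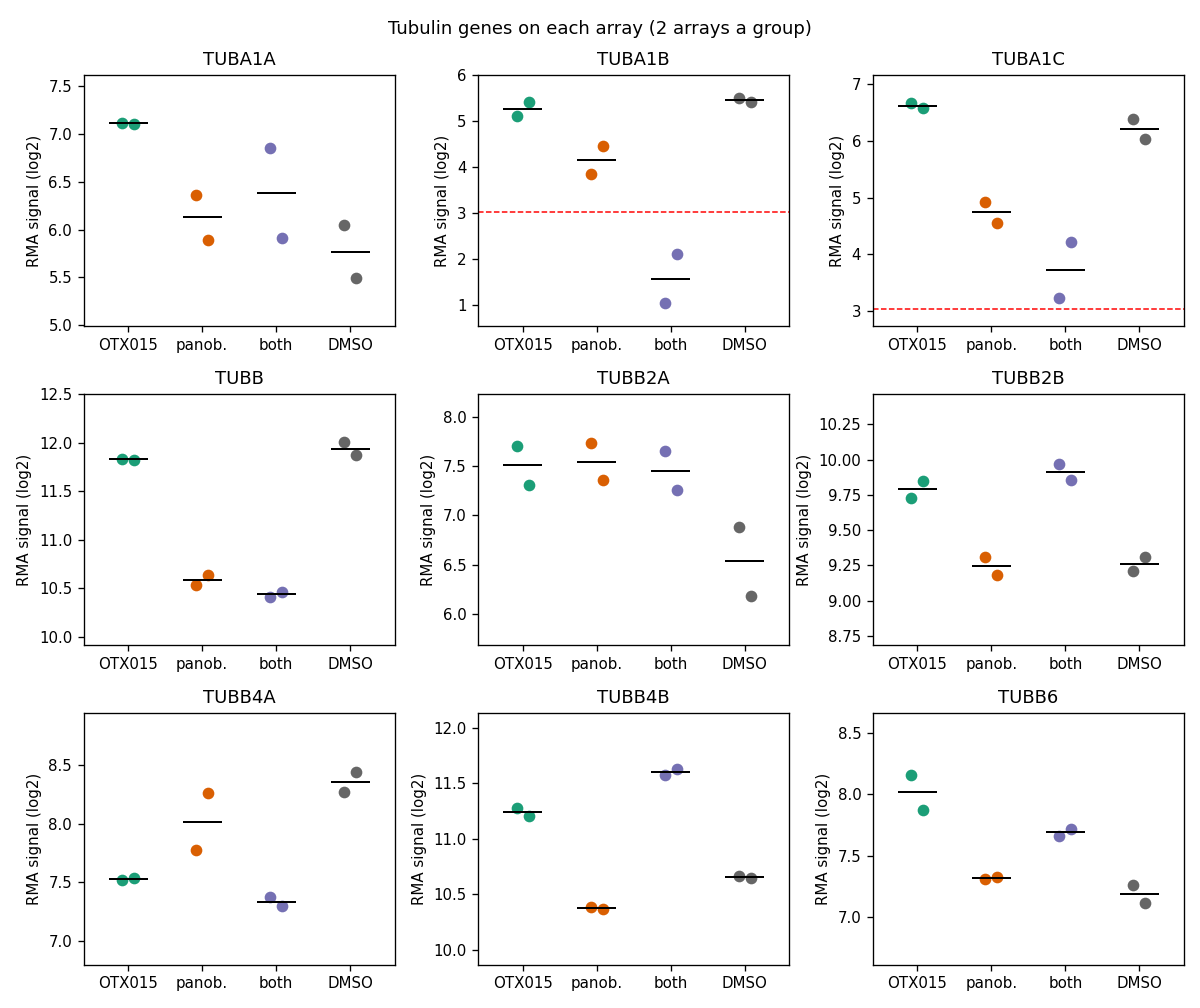
Deposited RMA signal (log2, y axis) of the 9 measured tubulin genes on each array, by treatment (x axis, "panob." is panobinostat and "both" is the combination). Points are arrays, black lines are means of 2 arrays, and the red dashed line is the background level of 3.03, drawn where it falls within a panel. TUBB and TUBA1C are low on all 4 arrays with panobinostat, TUBB4B is highest in the combination, and TUBA1B falls below background only in the combination.

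Panobinostat lowered 3 tubulin genes, TUBB, TUBA1B and TUBA1C, and raised TUBB2A. The other 5 of the 9 measured genes did not pass. Over all genes, panobinostat changed 37.2%, with 19.4% higher and 17.9% lower, so the share of 44.4% among the tubulins was near the background. The median difference of the 9 genes was -0.28, against -0.05 over all genes. Without panobinostat replicate 1 the count was 2 rather than 4.

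TUBB, the main beta tubulin of cycling cells, was measured at 10.53 and 10.64 in panobinostat and at 12.003 and 11.87 in DMSO. Both panobinostat arrays lay below both DMSO arrays. The gene fell 2.56-fold (-1.36 ± 0.12, adjusted p = 5.34e-05), and the call held without any 1 array (adjusted p = 0.000164 to 0.000909). In the combination TUBB was at 10.41 and 10.46, a fall of 2.83-fold against DMSO (-1.50 ± 0.12, adjusted p = 2.64e-05). OTX015 alone left the values at 11.83 and 11.82, a difference of -0.11 from DMSO (95% interval -0.39 to 0.17, adjusted p = 0.63). The order from low to high was combination, panobinostat, OTX015 and DMSO, and the step between panobinostat and OTX015 was the only one between neighbours that passed. Adding OTX015 to panobinostat gave a difference of -0.15 (95% interval -0.43 to 0.14, adjusted p = 0.516).

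TUBA1C, one of the 3 alpha tubulin genes that neighbour each other on chromosome 12, was at 4.93 and 4.56 in panobinostat, against 6.39 and 6.04 in DMSO. It fell 2.77-fold (-1.47 ± 0.30, adjusted p = 0.00429). The combination arrays read 3.23 and 4.22, which overlapped with no other group and gave a fall of 5.59-fold against DMSO (-2.48 ± 0.30, adjusted p = 0.000215). With OTX015 alone the values of 6.67 and 6.58 lay above both DMSO arrays, by 0.42, a difference that did not pass (adjusted p = 0.424). Combination and panobinostat differed by -1.02 (adjusted p = 0.0668), which also missed the threshold, and passed without combination replicate 2 (adjusted p = 0.0168).

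TUBA1B, a widely expressed alpha tubulin, read 3.85 and 4.46 in panobinostat, against 5.50 and 5.42 in DMSO. The fall of 2.47-fold (-1.31 ± 0.33, adjusted p = 0.0133) was lost without DMSO replicate 1 or panobinostat replicate 1 (adjusted p = 0.0586 to 0.0937). In the combination the arrays read 1.05 and 2.12, both under the background level. Its fall against DMSO was therefore at least 5.39-fold (measured means 1.58 in the combination and 5.46 in DMSO, adjusted p = 3.23e-05). Against panobinostat, the combination was at least 2.18-fold lower (-2.57 ± 0.33 as measured, adjusted p = 0.00368). The call on the measured difference held without any 1 array, and the bound was not recomputed without single arrays. OTX015 alone, at 5.10 and 5.41, differed from DMSO by -0.21 (95% interval -0.96 to 0.55, adjusted p = 0.754).

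The stretches before the annotated starts of TUBA1B and TUBB, which fell with panobinostat, and of TUBB4B, which was highest in the combination, are shown for the sequence context of genes that moved apart. Each is the 150 bases 5′ of the outermost start of the gene, from RefSeq on GRCh38.p14, at chr12:49131396-49131545 (minus strand), chr6:30720202-30720351 (plus strand) and chr9:137241137-137241286 (plus strand). Capitals mark GC boxes (GGGCGG) and CCAAT boxes (CCAAT) on either strand.
TUBA1B: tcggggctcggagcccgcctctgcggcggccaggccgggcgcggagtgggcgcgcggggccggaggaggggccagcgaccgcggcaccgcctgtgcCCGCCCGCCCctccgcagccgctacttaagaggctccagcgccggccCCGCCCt
TUBB: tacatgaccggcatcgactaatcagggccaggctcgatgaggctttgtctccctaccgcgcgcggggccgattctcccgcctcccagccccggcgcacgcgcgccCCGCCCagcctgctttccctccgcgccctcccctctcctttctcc
TUBB4B: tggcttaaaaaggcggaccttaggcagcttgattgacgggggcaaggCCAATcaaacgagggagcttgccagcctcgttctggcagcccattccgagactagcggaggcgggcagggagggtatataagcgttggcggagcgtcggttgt

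The TUBA1B stretch held 3 GC boxes, 2 of them overlapping, and no CCAAT box, the TUBB stretch held 1 GC box, and the TUBB4B stretch held 1 CCAAT box and no GC box. Searched over the 250 bases before each of the 14 starts listed for the 9 genes, some of which overlap, CCAAT was found in 9 windows and GGGCGG in 8. Among all 35116 windows of that length, 32.0% held CCAAT and 42.6% held GGGCGG. The TATA box, searched only as TATAAA, was found in 1 window of these genes, that of TUBB2A, and in 10.7% of all windows. Other spellings, such as the tatataa in the TUBB4B stretch, were not counted. The cell-cycle element searched as TTTGAA was in 3 windows, and in 13.3% of all. The E-box (searched as CACGTG) was also in 3, and in 6.3% of all. Of the genes that fell with panobinostat, TUBA1C had TTTGAA before 2 of its 3 starts, and TUBA1B and TUBB had it before none. The other window with TTTGAA was that of TUBB4B, whose difference with panobinostat did not pass. These matches describe letters and not bound sites.

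With OTX015 alone, TUBA1A, TUBB2A, TUBB2B, TUBB4B and TUBB6 rose, TUBB4A fell, and 3 of 9 did not pass, a share of 66.7% called. Over all genes OTX015 changed 16.5%, with 7.97% higher and 8.49% lower. The median difference of the 9 genes was 0.53, against -0.02 over all genes. Leaving out DMSO replicate 2 cut the count of 6 to 2, and leaving out the OTX015 arrays in turn cut it to 1 (replicate 1) and 2 (replicate 2). It was 4 when only the OTX015 and DMSO arrays were fitted, with TUBB2A (adjusted p = 0.0563) and TUBB2B (adjusted p = 0.0618) no longer called.

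TUBB6, a broadly expressed beta isotype, was at 8.16 and 7.87 with OTX015 and at 7.26 and 7.12 with DMSO, without overlap. Its rise of 1.77-fold (0.83 ± 0.14, adjusted p = 0.00546) was the only call of this comparison in the family that held without any 1 array (adjusted p = 0.0104 to 0.0425). TUBB4B, a beta isotype of many tissues that is abundant in cilia, had 11.28 and 11.20 with OTX015 and 10.66 and 10.64 with DMSO. Duplicates lay within 0.08 of each other in every group, and the gene rose 1.5-fold (0.59 ± 0.12, adjusted p = 0.0111), a call lost without OTX015 replicate 1 (adjusted p = 0.0698).

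TUBA1A, the alpha tubulin of developing neurons that is mutated in lissencephaly, had 7.12 and 7.11 with OTX015, against 6.05 and 5.49 with DMSO. This was the largest rise of the 9 genes with OTX015, 2.54-fold (1.35 ± 0.31, adjusted p = 0.0213), and it failed when DMSO replicate 2 or an OTX015 array was left out (adjusted p = 0.101 to 0.115). TUBA1A spread more between duplicates than most of the family, up to 0.95 in the combination, where it read 6.86 and 5.91. Neither panobinostat (0.36 ± 0.31, adjusted p = 0.427) nor the combination (0.62 ± 0.31, adjusted p = 0.17) passed against DMSO, and the difference in the combination passed once combination replicate 2 was left out (adjusted p = 0.0199).

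TUBB2A and TUBB2B, near-identical beta isotypes that lie close to each other on chromosome 6, followed different courses. TUBB2A was higher on every drug-treated array than on either DMSO array: 7.70 and 7.31 with OTX015, 7.73 and 7.36 with panobinostat and 7.65 and 7.26 in the combination, against 6.89 and 6.18 in DMSO. Its rises were 1.96-fold (adjusted p = 0.0383), 2.01-fold (adjusted p = 0.0155) and 1.89-fold (adjusted p = 0.0237) in that order, and the treated groups did not separate from each other (adjusted p = 0.875 to 0.942). All 3 calls rested on DMSO replicate 2, without which adjusted p was 0.183, 0.0947 and 0.14. They were also lost without OTX015 replicate 1 or 2 (0.208 and 0.076), panobinostat replicate 1 (0.1) and combination replicate 1 (0.135).

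TUBB2B, the isotype mutated in polymicrogyria, split the groups by OTX015 instead. It read 9.73 and 9.85 with OTX015 and 9.97 and 9.85 in the combination, against 9.31 and 9.18 with panobinostat and 9.21 and 9.31 with DMSO. All 4 arrays with OTX015 lay above all 4 without it. The rise with OTX015 was 1.45-fold (0.53 ± 0.13, adjusted p = 0.0244), lost without any 1 of the 4 OTX015 and DMSO arrays (adjusted p = 0.0601 to 0.133), and the rise in the combination was 1.57-fold (0.65 ± 0.13, adjusted p = 0.00364), held without any 1 array. Panobinostat differed from DMSO by -0.01 (95% interval -0.31 to 0.28, adjusted p = 0.95).

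TUBB4A, a brain beta isotype of myelinating oligodendrocytes and neurons, went the other way. It had 7.52 and 7.54 with OTX015, 7.77 and 8.26 with panobinostat and 7.38 and 7.30 in the combination, against 8.27 and 8.45 with DMSO. OTX015 lowered it 1.78-fold (-0.83 ± 0.17, adjusted p = 0.013), a call that failed when DMSO replicate 2 or an OTX015 array was left out (adjusted p = 0.0688 to 0.072). In the combination it fell 2.03-fold (-1.02 ± 0.17, adjusted p = 0.00156), held without any 1 array. The difference of -0.34 with panobinostat did not pass (adjusted p = 0.162), and it passed without panobinostat replicate 2 (adjusted p = 0.0332).

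**Figure D2:**
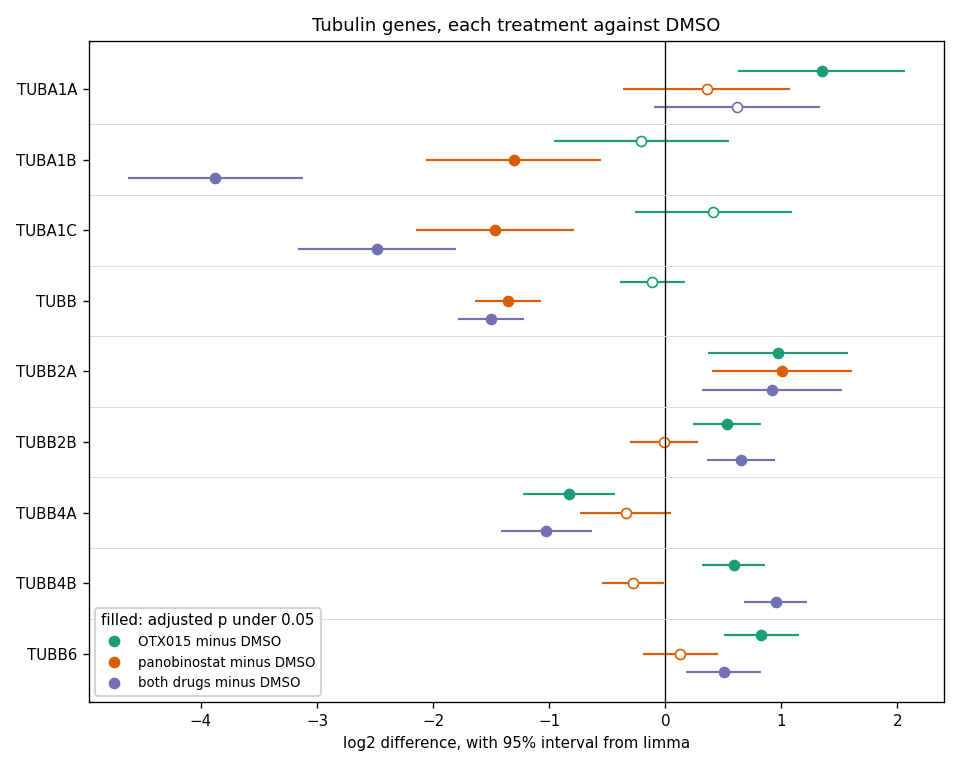
Log2 difference from DMSO (x axis) of each measured tubulin gene (rows) with OTX015, panobinostat or both drugs. Bars are 95% intervals from limma with 2 arrays a group, filled points have adjusted p under 0.05, and open points do not. The intervals of TUBB and TUBA1C lie below 0 with panobinostat and with both drugs and include 0 with OTX015, and those of TUBB2B and TUBB6 lie above 0 with OTX015 and with both drugs.

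The combination changed 8 of the 9 genes against DMSO, 88.9%, where 37.5% of all genes were called (19.2% higher, 18.4% lower). TUBB2A, TUBB2B, TUBB4B and TUBB6 rose, TUBB, TUBA1B, TUBA1C and TUBB4A fell, and TUBA1A did not pass. The 3 comparisons with DMSO share the same 2 vehicle arrays, so their values are not independent of each other. TUBB4B stood at 11.58 and 11.63 in the combination, above every other array, and rose 1.93-fold against DMSO (0.95 ± 0.12, adjusted p = 0.000266). TUBB6, at 7.66 and 7.72, rose 1.42-fold (0.50 ± 0.14, adjusted p = 0.0213), a call lost without DMSO replicate 2 or either combination array (adjusted p = 0.0631 to 0.101).

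When panobinostat was added to OTX015, TUBB, TUBA1B and TUBA1C fell and TUBB4B rose, 4 of 9 genes, with 30.0% of all genes called (15.3% higher, 14.7% lower). TUBB fell by 1.39 and TUBA1C by 2.90 on the log2 scale against OTX015 alone (adjusted p = 6.84e-05 and 0.000146). TUBA1B was at least 4.68-fold lower (adjusted p = 7.43e-05). The rise of TUBB4B was small (0.36 ± 0.12, adjusted p = 0.0487) and failed without any 1 of the 8 arrays (adjusted p = 0.0593 to 0.191) and after median centring of the arrays (adjusted p = 0.179). TUBA1A differed by -0.73 (adjusted p = 0.123) and TUBB6 by -0.32 (adjusted p = 0.129), with the combination arrays below both OTX015 arrays in each case.

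When OTX015 was added to panobinostat, TUBB2B and TUBB4B rose and TUBA1B and TUBB4A fell, again 4 of 9, with 10.4% of all genes called (4.33% higher, 6.10% lower). TUBB4B had 11.58 and 11.63 in the combination and 10.39 and 10.37 with panobinostat, a rise of 2.34-fold (1.23 ± 0.12, adjusted p = 0.00135) that held without any 1 array. TUBB2B rose 1.59-fold (0.67 ± 0.13, adjusted p = 0.0162) and was lost without any 1 of the arrays compared (adjusted p = 0.0529 to 0.0987). The fall of TUBB4A (-0.68 ± 0.17, adjusted p = 0.0412) held only without panobinostat replicate 1, and adjusted p reached 0.2 without panobinostat replicate 2. The count of 4 was 2 without panobinostat replicate 2 or combination replicate 1.

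Set directly against panobinostat, OTX015 gave higher values of 7 of the 9 genes and lower values of none that passed, where 29.3% of all genes were called (13.3% higher, 16.0% lower). TUBB (1.25 ± 0.12, adjusted p = 0.00015), TUBA1C (1.88 ± 0.30, adjusted p = 0.00164), TUBB4B (0.87 ± 0.12, adjusted p = 0.000759) and TUBB6 (0.70 ± 0.14, adjusted p = 0.00593) held without any 1 array. TUBA1A (adjusted p = 0.0449), TUBA1B (adjusted p = 0.0359) and TUBB2B (adjusted p = 0.0123) were each lost without single arrays, at adjusted p of up to 0.225, 0.205 and 0.085. Without OTX015 replicate 2 the count was 4. TUBB4A differed by -0.49 (adjusted p = 0.0663), the only one of the 9 with OTX015 arrays below both panobinostat arrays, and TUBB2A differed by -0.04 (95% interval -0.64 to 0.57).

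The interaction, which asks whether the effect of OTX015 differs with panobinostat present, was called for TUBA1B (lower) and TUBB4B (higher), 2 of 9 or 22.2%, beside 13.7% of all genes (6.32% higher, 7.42% lower). For TUBA1B, OTX015 gave -2.57 with panobinostat and -0.21 without it, an interaction of -2.36 ± 0.47 (adjusted p = 0.0135). With the combination set at the background level, the interaction of TUBA1B was -0.92. For TUBB4B, OTX015 gave 1.23 with panobinostat and 0.59 without it (0.64 ± 0.17, adjusted p = 0.0385), and that call failed without any 1 of the 8 arrays (adjusted p = 0.0783 to 0.116). TUBA1C had an interaction of -1.43 ± 0.42, which did not pass (adjusted p = 0.0578). It did pass with the dimmest 25% of genes dropped (adjusted p = 0.0463) and with a robust trend on signal (adjusted p = 0.0332). TUBB had an interaction of -0.04 ± 0.17 (adjusted p = 0.925), with OTX015 effects of -0.15 and -0.11 with and without panobinostat.

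**Figure D3:**
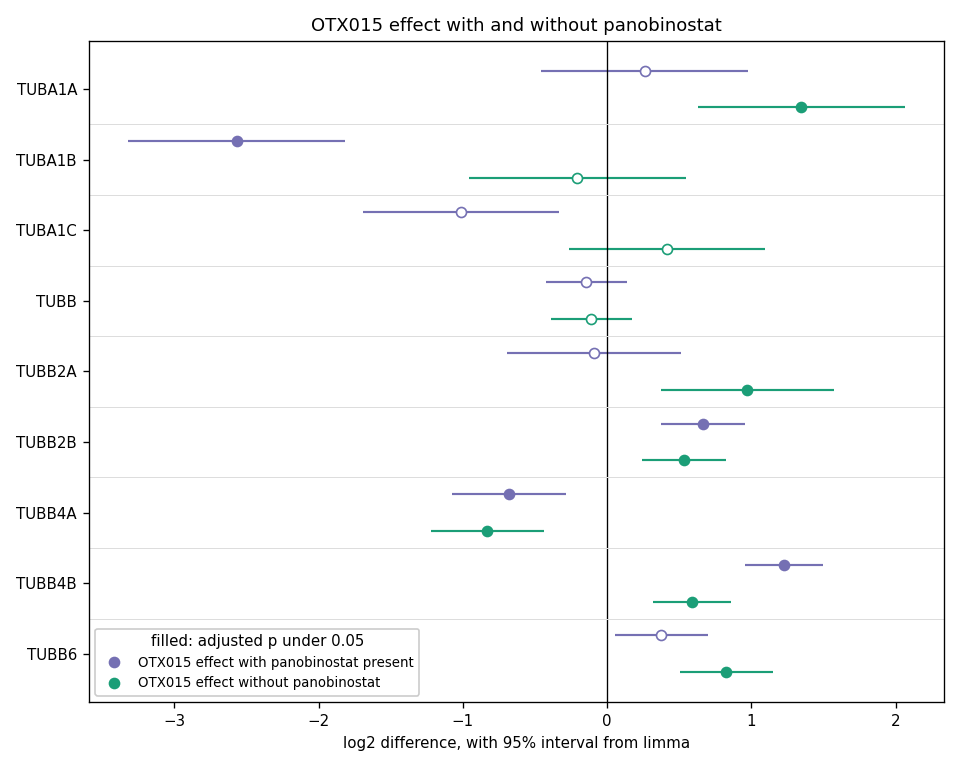
Log2 effect of OTX015 (x axis) on each measured tubulin gene (rows) with panobinostat present (combination minus panobinostat, purple) and without it (OTX015 minus DMSO, green). Bars are 95% intervals from limma with 2 arrays a group, and filled points have adjusted p under 0.05. The points of TUBB4B lie apart, at 1.23 and 0.59, and those of TUBB lie together, at -0.15 and -0.11. The purple point of TUBA1B, at -2.57, rests on combination arrays under the background level.

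Across the 8 arrays the members fell into courses that can be described by Pearson's r, given here without a test because the arrays come in 4 groups and r mostly reads the group levels. TUBA1C ran with TUBB (r = 0.93) and with TUBA1B (r = 0.92), the latter r including combination arrays on which TUBA1B lay under background. TUBB2B ran with TUBB4B (r = 0.95) and opposite to TUBB4A (r = -0.90). TUBB and TUBB6 shared no course (r = 0.07). The span between the lowest and the highest group mean was 2.90 for TUBA1C, wider than in 98% of genes, and 0.67 for TUBB2B, wider than in 57% of genes. For TUBA1B, whose lowest group lay under background, it was at least 2.43.

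Among 5763 genes outside the family whose group means spanned at least 1 on the log2 scale, GPM6A, a neuronal membrane glycoprotein gene, was 1 of the 2 with the course most like that of TUBB over the 8 arrays (r = 0.9984). GPM6A averaged 4.86 with panobinostat, 4.13 in the combination and 9.38 with OTX015, against 9.48 in DMSO. The order of groups was that of TUBB, which the choice by r favours. RAB6A (r = 0.99), a Golgi trafficking GTPase, was nearest to TUBA1B, whose combination arrays lay under background. PAK2 (r = 0.987), a kinase downstream of Rac and Cdc42, was nearest to TUBA1C. BCR (r = 0.986) was nearest to TUBB4B and TIAM2, an exchange factor for Rac (r = 0.966), to TUBB2A. PMAIP1, a pro-apoptotic gene of the BCL-2 family also called NOXA, was nearest to TUBA1A (r = 0.922), and DUS2, a tRNA dihydrouridine synthase gene, to TUBB4A (r = 0.963).

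Of 12 other tubulin genes measured, 9 lay above background in DMSO. TUBA4A, an alpha tubulin, rose with panobinostat (5.13, against 3.54 in DMSO, 1.59 ± 0.21, adjusted p = 0.000426) and in the combination (5.73, 2.19 ± 0.21, adjusted p = 6.46e-05), where TUBA1B and TUBA1C fell. TUBG2, a gamma tubulin of the nucleating ring enriched in brain, rose in all 3 treatments (0.71, 1.00 and 1.26 with OTX015, panobinostat and the combination), and the first of these calls failed when DMSO replicate 1 or an OTX015 array was left out (adjusted p = 0.0533 to 0.0713). Its paralogue TUBG1 fell with panobinostat by 0.47 (adjusted p = 0.0294), lost without DMSO replicate 1 or either panobinostat array (adjusted p = 0.0982 to 0.155). In all, 1, 3 and 4 of the 12 were called with OTX015, panobinostat and the combination, or 8.33%, 25% and 33.3%, beside 16.5%, 37.2% and 37.5% of all genes. Their medians were -0.04, -0.12 and 0.07.

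Genes for tubulin folding and autoregulation, which hold the CCT chaperonin, prefoldin and the tubulin cofactors, had 6 of 22 higher and 7 lower with panobinostat (median -0.09) and 5 higher and 9 lower in the combination (median -0.15). Over all genes, 19.4% were higher and 17.9% lower with panobinostat (median -0.05), and 19.2% higher and 18.4% lower in the combination (median 0.01). The CCT subunit gene CCT5 (-1.22 ± 0.13) and the prefoldin genes VBP1 (-1.24 ± 0.14) and PFDN4 (-1.18 ± 0.22) fell most with panobinostat. With OTX015, 2 rose and 4 fell, a share of 27.3% beside 16.5% of all genes, and the count was lower without single arrays. TTC5, the autoregulation factor, was among the 4 (-0.62 ± 0.17, adjusted p = 0.0388). The call was lost without 7 of the 8 arrays in turn and after median centring (adjusted p = 0.0507). TTC5 averaged 6.38 with panobinostat and 6.20 in the combination, against 5.27 in DMSO and 4.65 with OTX015. The combination was higher than OTX015 by 1.56 ± 0.17 (adjusted p = 0.000203). Its part in the tubulin values was not tested.

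Of 28 enzymes that modify tubulin, 9 rose and 3 fell with panobinostat and 11 rose and 3 fell in the combination (medians 0.10 and 0.22), shares of 42.9% and 50% beside 37.2% and 37.5% of all genes. The deglutamylase gene AGTPBP1 rose with panobinostat (1.41 ± 0.17), as it did with OTX015 (1.14 ± 0.17). HDAC6, the tubulin deacetylase, rose in the combination (7.90, against 6.65 in DMSO, 1.25 ± 0.13, adjusted p = 0.000105). With OTX015, 6 rose and 1 fell, a share of 25% beside 16.5% of all genes, and fewer were called without single arrays.

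Structural microtubule-associated proteins had 11 of 22 higher and 6 lower with panobinostat (median 0.47), and 8 higher and 6 lower in the combination (median 0.31). These were shares of 77.3% and 63.6% called, beside 37.2% and 37.5% of all genes. DCLK1, a doublecortin-like microtubule-binding kinase, averaged 6.16 with panobinostat and 7.03 in the combination, against 1.56 in DMSO, which lies under background, so it rose at least 8.75-fold and at least 16.1-fold. MAP9, a spindle-associated protein gene, rose by 2.53 and 2.81 on the log2 scale, and TPPP, a microtubule-bundling protein gene of oligodendrocytes, by 1.74 with panobinostat and by 1.47 with OTX015. Among 11 stathmin and severing genes, 4 rose and 3 fell with panobinostat, a share of 63.6% beside 37.2% of all genes. STMN2, a neuronal stathmin that binds free tubulin, rose at least 5.83-fold with panobinostat and at least 11.6-fold in the combination, its DMSO level (2.22) being under background. FIGN, a microtubule-severing ATPase gene, fell with panobinostat (-2.48 ± 0.15), in the combination (-3.18 ± 0.15) and with OTX015 (-1.85 ± 0.15). Without any 1 of 5 arrays (DMSO replicate 2 and either array of OTX015 or panobinostat), 4 of these 11 were called with panobinostat rather than 7.

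Genes of the gamma-tubulin ring and of microtubule plus ends had 5 of 29 higher and 9 lower with panobinostat and 4 higher and 12 lower in the combination, shares of 48.3% and 55.2% beside 37.2% and 37.5% of all genes. The spindle protein gene TACC3 changed most (-2.42 ± 0.13 and -2.63 ± 0.13). That count of 16 in the combination was 9 without DMSO replicate 1 and 10 without combination replicate 1. All 22 mitotic spindle kinesins and regulators fell with panobinostat (median -2.31, against -0.05 over all genes) and in the combination (median -2.41). Over all genes, 17.9% and 18.4% fell. With OTX015, 4 of the 22 fell (median -0.36), a share of 18.2% beside 16.5% of all genes called (8.49% lower). That count was 0 when either OTX015 array was left out. The mean level of the 22 genes on single arrays was 4.98 to 5.11 with panobinostat and 4.99 to 5.05 in the combination, against 6.91 to 7.01 with OTX015 and 7.26 to 7.34 with DMSO. TUBB, TUBA1B and TUBA1C fell together with this list in panobinostat and in the combination against DMSO, and its part in their values was not tested. Between the combination and panobinostat the list had a median of 0.05 (1 of 22 higher, 1 lower), a share of 9.09% beside 10.4% of all genes. TUBA1B was at least 2.18-fold lower in the combination, where it lay under background. In these bulk arrays, fewer cells of a kind and less RNA per cell cannot be told apart. Neuronal genes, some of them also in the structural and stathmin lists above, had 15 of 25 higher and 4 lower with panobinostat (median 1.14). In the combination 16 were higher and 3 lower (median 1.03), so 76% were called in each, beside 37.2% and 37.5% of all genes. The synaptic vesicle protein gene SYN1 (4.36 ± 0.17) changed most with panobinostat, and the RNA-binding protein gene ELAVL3 (4.56 ± 0.20) in the combination. The 12 neuronal markers, all of them also among those 25 genes, had 6 higher and 3 lower with panobinostat (median 0.60). In the combination 6 were higher and 2 lower (median 0.57), shares of 75% and 66.7% beside 37.2% and 37.5% of all genes. The markers of the labelled glioma stem cells had 1 of 13 higher and 8 lower with panobinostat, a share of 69.2% beside 37.2% of all genes. Their array means were 6.22 to 6.28 with panobinostat, 5.92 to 5.94 in the combination and 7.32 to 7.34 with OTX015, against 7.43 to 7.46 in DMSO. Of 10 microglia and macrophage markers, 3 (CD68, CSF1R and TMEM119) rose with panobinostat, 30% beside 37.2% of all genes. The list median was 0.09, and CD68 (3.94) and CSF1R (2.34) changed most. Array means were 3.12 to 3.14 with panobinostat, 3.23 to 3.29 in the combination and 2.58 to 2.64 with OTX015, against 2.30 to 2.49 in DMSO. With panobinostat, 7 of the 10 lay under background. The part of either list in the tubulin values was not tested. Of the 4 brain-enriched beta isotypes, TUBB2A rose with panobinostat, TUBB2B and TUBB4A did not pass, and TUBB3 was not analysed here.

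**Figure D4:**
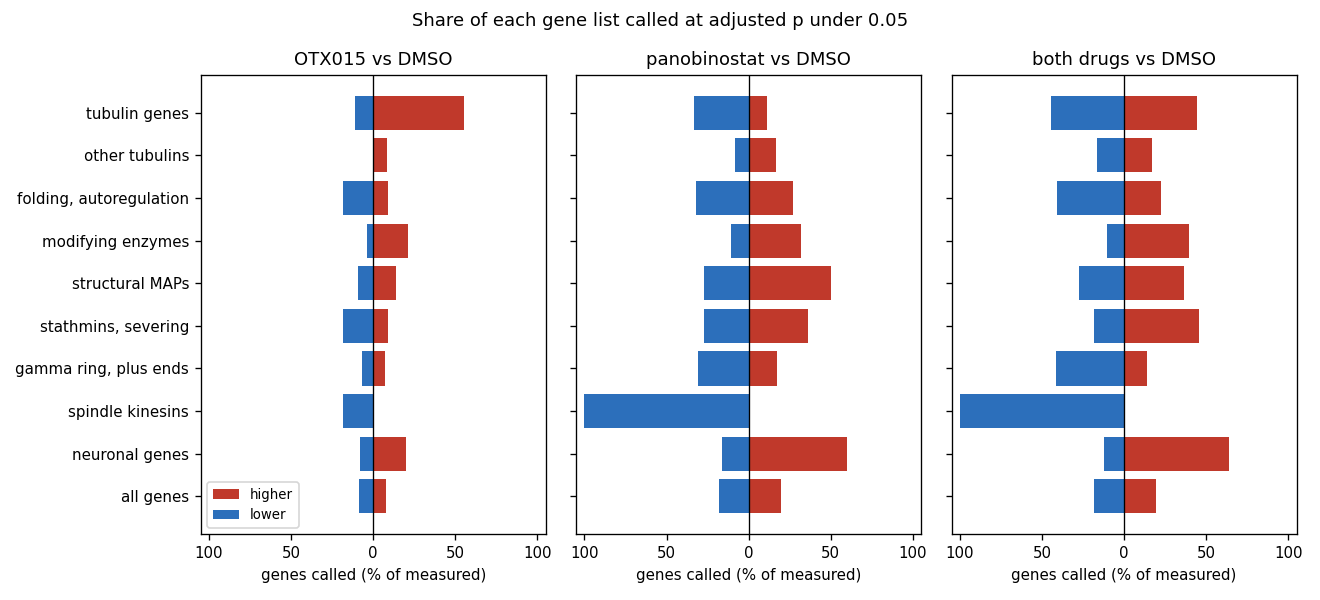
Percentage of the measured genes of each list (rows) called higher (red, right of 0) or lower (blue, left of 0) at adjusted p under 0.05, with OTX015, panobinostat or both drugs against DMSO. The top row is the 9 tubulin genes and the bottom row all 22458 genes. Tubulins lean to higher with OTX015 (5 of 9 higher, 1 lower), whereas all 22 spindle genes are lower with panobinostat and with both drugs.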

How the data were processed

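RNA from 8 arrays (4 groups of 2) was labelled with biotin using the WT Plus kit, per the labels' protocols. The deposited values are log2 signals that the authors made with RMA (affy 1.36.1, R 2.15.1), per the submitters' processing notes. The array model is not given in the sources used here. RMA gives the arrays a like distribution, so a change in total RNA per cell would not show. The platform annotation named 22458 of 23786 probe sets, each with 1 symbol, and the other 1328 were tested only as an alternative.

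Groups and replicate numbers come from sample titles. With limma 3.58.1 (R 4.3.3), 1 model held all arrays and a mean for each of the 4 groups, without covariates. Tests were two-sided with Benjamini-Hochberg adjustment over all named genes and no filter. The procedure was tested on simulated data. Every measured tubulin gene is named, and up to 3 called genes of each list with the largest changes in a comparison, of which the text gives some. Genes of similar course are the 2 nearest by r for each tubulin gene whose group means span at least 1, of which the text gives 1 each; the nearest to TUBB is not reported here. Members and lists were chosen with earlier results of these data known. Over all genes, replicate numbers paired arrays only weakly (r of deviations 0.047 to 0.119 over 6 group pairs), so no block was used. For TUBA1A and TUBB2A, replicate 1 read above replicate 2 in each of the 4 groups. Promoter windows are from RefSeq, and all 9 genes matched by symbol.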

Additional observations from a re-analysis of the deposited data

Results flagged for a closer look

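The effect of OTX015 differed with and without panobinostat for 2 tubulin genes by the interaction term of the limma fit. TUBA1B had an interaction of -2.36 (adjusted p = 0.0135), which rests on combination arrays under the background level and was lost without OTX015 replicate 2 (adjusted p = 0.0591). TUBB4B had an interaction of 0.64 (adjusted p = 0.0385), which was lost without any 1 of the 8 arrays (adjusted p = 0.0783 to 0.116).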

How the results depend on the processing

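The fits were repeated on median-centred and on quantile-normalized arrays, with the dimmest 25% of genes dropped, with unnamed probe sets included, with only the compared groups, with a robust trend on signal, with the replicate number as a block, and without each array; the background correction could not be varied from the deposited values. No tubulin difference changed direction on a called value. Leaving out single arrays gave 1 to 6 tubulin genes called for OTX015 against DMSO (6 with all arrays), 2 to 5 for panobinostat against DMSO (4), 2 to 3 for the combination against panobinostat (4), 4 to 7 for OTX015 against panobinostat (7) and 0 to 2 for the interaction (2). The interaction count was 1 after median centring and 1 after quantile normalization. Over all comparisons and alternatives, 90 tubulin counts stayed within 1.5 times the reported one and 14 did not. With the replicate block, TUBB2A passed for the interaction (-1.06, adjusted p = 0.0144) and TUBA1A for the combination against OTX015 (-0.73, adjusted p = 0.0365), while TUBB4B lost its call for the combination against OTX015 (adjusted p = 0.0553). Over all genes, single arrays left out gave 1885 to 3415 calls for OTX015 against DMSO (3697) and 566 to 2251 for the combination against panobinostat (2342). With 2 arrays a group a lone array is assumed to vary like the other groups.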
